A study of Mus musculus with 6 samples.

Results

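Neural crest and roof plate factors are transcription factors of the dorsal edge of the neural tube. The 9 genes examined were Foxd3, Tfap2a, Tfap2b, Snai2, Ets1, Msx1, Msx2, Lmx1a and Lmx1b, and their chromatin was followed as 89 accessible intervals of 52223 in the whole ATAC-seq table. An interval was assigned to a gene when its midpoint lay inside the protein-coding gene body, or when the nearest start or finish of any protein-coding gene was that gene's and lay within 300 kb. Lmx1b had 17 intervals, Ets1 14, Tfap2a 12, Msx2 12, Lmx1a 10, Msx1 9, Tfap2b 8, Foxd3 6 and Snai2 1. Midpoints of 32 intervals lay inside the genes and those of 57 outside them, none in another protein-coding gene.

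ATAC-seq measures open chromatin through the Tn5 transposase, which inserts sequencing adapters where DNA is exposed. The tested cells, labelled Nr6a1OE (genotype Nr6a1+overexpression), were mouse neural progenitors transduced on day 5 of differentiation with a lentivirus encoding Nr6a1 joined by a 2A peptide to the fluorescent protein mScarlet3. Their controls, labelled mScarlet (genotype Control), received a lentivirus for mScarlet3 alone. Both groups came from embryonic stem cells in N2B27 medium that had been exposed to bFGF, then to 5 µM of the GSK3 inhibitor CHIR99021, then to 100 nM retinoic acid with 10 nM Smoothened agonist (SAG), and were kept in SAG afterwards. On day 9 fluorescent cells were sorted, and 50000 entered each of the 6 libraries, 3 per group. The sources used here do not give the promoter of the virus, the stem cell line or whether each library is a culture of its own. The p-values therefore reflect the spread among these libraries, which could be technical.

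Neural crest cells arise at the border of the neural plate, leave the dorsal neural tube and form peripheral neurons, glia, pigment cells and parts of the head skeleton. The roof plate is the dorsal midline of the tube and a source of BMP and Wnt signals. Msx1, Msx2, Tfap2a and Tfap2b act at the border under BMP signalling, Foxd3, Snai2 and Ets1 are crest factors, and Lmx1a and Lmx1b are LIM homeodomain factors, of which Lmx1a directs roof plate formation. Retinoic acid with a Smoothened agonist gives neural cells a posterior and ventral character, so these are genes of the opposite side of the tube. Nr6a1 is a nuclear receptor without a known ligand that binds direct repeats of AGGTCA and acts mostly as a repressor. The comparison of Nr6a1OE with mScarlet asked whether its overexpression changed the chromatin at these dorsal genes.

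Libraries held 7035135 to 7923767 fragments in intervals for Nr6a1OE and 6857763 to 8030029 for mScarlet, of which 9489 to 11080 (Nr6a1OE) and 9334 to 10430 (mScarlet) lay in the 89 intervals. At Nr6a1 itself 1 of 8 intervals gained accessibility, with 64.6 ± 2.66 CPM in Nr6a1OE and 52.3 ± 3.78 CPM in mScarlet (SD, n = 3 each; edgeR adjusted p = 1.22e-04), and reads from the viral copy cannot be told from the gene's. CPM values are fragment counts relative to the library total, after TMM scaling. All 10 neural progenitor markers had an interval within 1 kb of a gene end, as did all 8 ventral progenitor and floor plate markers and all 8 neuron markers, 5 of 6 mesoderm markers, 2 of 6 endothelium and blood markers and 2 of 4 pluripotent cell markers. Among the pluripotent markers Pou5f1 and Zfp42 had none. Counted instead by intervals covering a RefSeq promoter start, the numbers of markers were 8, 6, 7, 2, 3 and 1 in the same order. Runx1, a blood marker without an interval at its ends, had such a start interval at 28.3 CPM per kb. In a bulk assay fewer cells with an open site and a less open site in each cell cannot be told apart.

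Starts of 7 of these dorsal genes were accessible in both groups of this ventralised culture, mostly at low or middling levels among gene starts. RefSeq promoters (GRCm38.p6, 250 bases before to 50 after the start) were found for 7 of the 9 genes, 8 promoters in all since Tfap2a has 2, and not for Snai2 and Ets1. An accessible interval covered a start of each of the 7 genes. The other Tfap2a start lay in no interval. By CPM per kb over all libraries these starts were ranked among 11710 intervals at gene starts. Tfap2b stood at percentile 14.9, Lmx1b at 26.1, Foxd3 at 26.3 and Lmx1a at 30.6. Tfap2a stood at 41.8, Msx1 at 49.6 and Msx2 at 52.1. Promoters of 3 genes are shown, those of the 2 most accessible starts per length and of the least accessible, with every CpG dinucleotide in capitals. They are those of Msx1 (chr5:37824536-37824835, minus strand), Msx2 (chr13:53472731-53473030, minus strand) and Tfap2b (chr1:19211804-19212103, plus strand), each written 5′ to 3′.
Msx1: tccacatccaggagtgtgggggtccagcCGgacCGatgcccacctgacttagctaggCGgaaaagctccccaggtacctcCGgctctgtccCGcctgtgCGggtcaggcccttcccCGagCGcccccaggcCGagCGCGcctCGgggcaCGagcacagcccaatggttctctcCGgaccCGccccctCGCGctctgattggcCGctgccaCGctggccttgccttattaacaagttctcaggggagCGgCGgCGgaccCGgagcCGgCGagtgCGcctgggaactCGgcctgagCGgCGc
Msx2: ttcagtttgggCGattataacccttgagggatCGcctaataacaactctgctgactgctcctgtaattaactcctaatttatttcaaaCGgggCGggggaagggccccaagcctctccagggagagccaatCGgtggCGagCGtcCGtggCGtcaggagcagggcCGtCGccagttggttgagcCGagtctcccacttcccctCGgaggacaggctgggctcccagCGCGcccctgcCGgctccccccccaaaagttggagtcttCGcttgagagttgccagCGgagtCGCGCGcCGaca
Tfap2b: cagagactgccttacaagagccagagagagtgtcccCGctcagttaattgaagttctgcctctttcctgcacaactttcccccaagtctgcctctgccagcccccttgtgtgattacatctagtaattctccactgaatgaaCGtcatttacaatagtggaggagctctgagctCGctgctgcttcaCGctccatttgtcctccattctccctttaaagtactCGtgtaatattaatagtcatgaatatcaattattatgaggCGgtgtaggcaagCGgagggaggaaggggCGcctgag

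The Msx1 promoter held 29 CpG in 300 bases with a GC content of 70.0%, the Msx2 promoter 22 CpG and 61.0%, and the Tfap2b promoter 8 CpG and 48.3%. The median over all 32851 RefSeq promoters was 7 CpG and 52.7%. Among promoters not shown, those of Foxd3 and Lmx1b held 25 and 24 CpG, with 17.7 and 17.5 CPM per kb at their starts. At the covered start of Tfap2a there were 15 CpG and 27.1 CPM per kb, and at Lmx1a 12 CpG and 20.4 CPM per kb. CpG number and accessibility per length were therefore not in the same order over these genes. The ratio of observed to expected CpG was 0.794 at Msx1, 0.789 at Msx2 and 0.458 at Tfap2b, against a median of 0.384 over all promoters. On both strands, neither the direct repeat known as DR0, which is AGGTCA followed at once by AGGTCA, nor the monomer site TCAAGGTCA that DR0 contains occurred in any of the 8 promoters. They occurred in 0.00609% and 0.423% of all promoters. The Snai2 E-box CAGGTG was found in 1 of the 8, that of Msx1, as CACCTG beginning 210 bases before the start, and in 20.2% of all promoters. The TFAP2 motif GCCNNNGGC was found in 0 of the 8 and in 16.6% of all promoters. These are matches of letters in short windows and describe no binding.

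Accessibility per length at the starts differed between genes, in a similar order in both conditions. Msx2 had 34.8, 32.8 and 33.0 CPM per kb of interval in Nr6a1OE libraries, against 29.4, 33.0 and 30.8 in mScarlet libraries. Msx1 had 31.2, 30.6 and 31.7 CPM per kb in Nr6a1OE, against 30.7, 31.0 and 31.3 in mScarlet. For Snai2, which encodes the zinc finger repressor Slug, the interval at the nearest gene end had 34.4, 31.4 and 34.0 CPM per kb in Nr6a1OE, against 29.9, 29.6 and 32.4 in mScarlet. These 3 levels overlapped one another in their spread and stood above the rest. Tfap2a followed at 27.7 ± 1.07 CPM per kb in Nr6a1OE and 26.5 ± 1.13 in mScarlet (SD, n = 3 each). Lmx1a had 20.0 ± 1.43 and 20.8 ± 1.40, Foxd3 17.2 ± 1.36 and 18.1 ± 1.78, and Lmx1b 17.8 ± 0.876 and 17.2 ± 0.976 CPM per kb in Nr6a1OE and mScarlet, 3 neighbours whose library values overlapped. Tfap2b was lowest among the starts, at 9.64 ± 0.595 CPM per kb in Nr6a1OE and 10.3 ± 1.24 in mScarlet. This start interval lay inside the RefSeq gene, 3.3 kb from its nearer end. Another Tfap2b interval, 1.0 kb from the same end (19208974 to 19210925), had 15.6 CPM per kb over all libraries. The interval at the nearest end of Ets1 had 5.29 ± 0.425 CPM per kb in Nr6a1OE and 7.22 ± 2.66 in mScarlet, with mScarlet 1 at 4.15 below every other library.

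**Figure D1:**
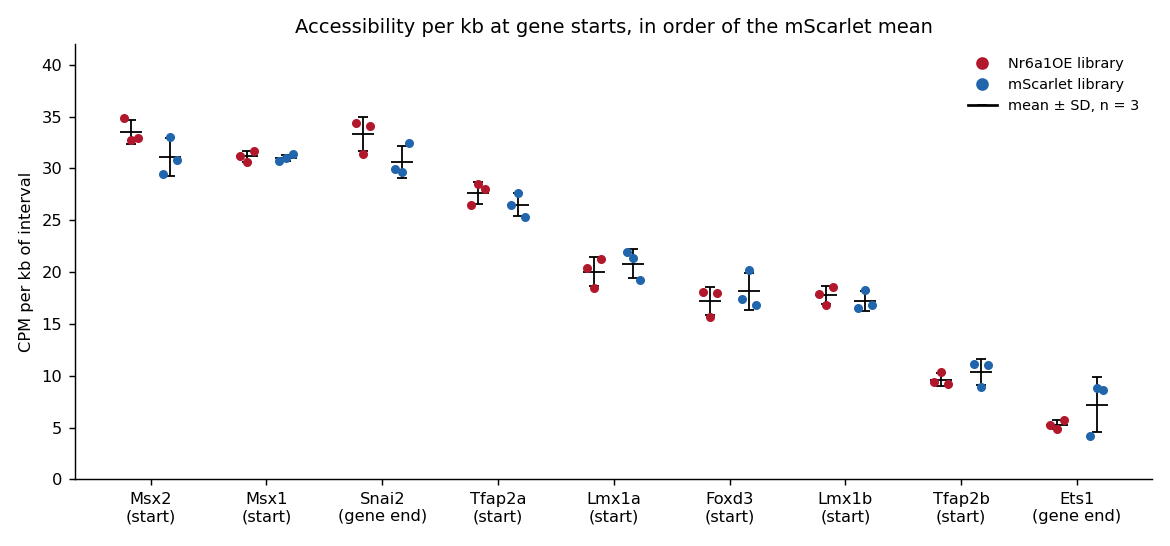
Accessibility (CPM per kb of interval) at the start of each gene, or at the nearest gene end for Snai2 and Ets1, with a point per library, Nr6a1OE left of mScarlet, and mean ± SD (n = 3). Msx2, Msx1 and Snai2 libraries sit between 29.4 and 34.8, Tfap2b libraries between 8.89 and 11.1, and the groups overlap at every gene.

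None of these start intervals passed the test. The fitted log2 fold change (Nr6a1OE over mScarlet, edgeR quasi-likelihood with Benjamini-Hochberg adjustment over 51637 tested intervals) was 0.01 at Msx1 with a 95% interval of -0.11 to 0.13. It was 0.05 at Lmx1b (-0.05 to 0.16), 0.07 at Tfap2a (-0.11 to 0.24) and 0.11 at Msx2 (-0.04 to 0.25). It was -0.05 at Lmx1a (-0.19 to 0.10), -0.07 at Foxd3 (-0.21 to 0.08) and -0.11 at Tfap2b (-0.38 to 0.17). Adjusted p ran between 0.578 at Msx2 and 0.977 at Msx1. At Snai2 the value was 0.12 (-0.02 to 0.25, edgeR adjusted p = 0.509), and at the Ets1 end -0.44 (-0.97 to 0.08, edgeR adjusted p = 0.513), a weak interval of 461 bp.

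**Figure D2:**
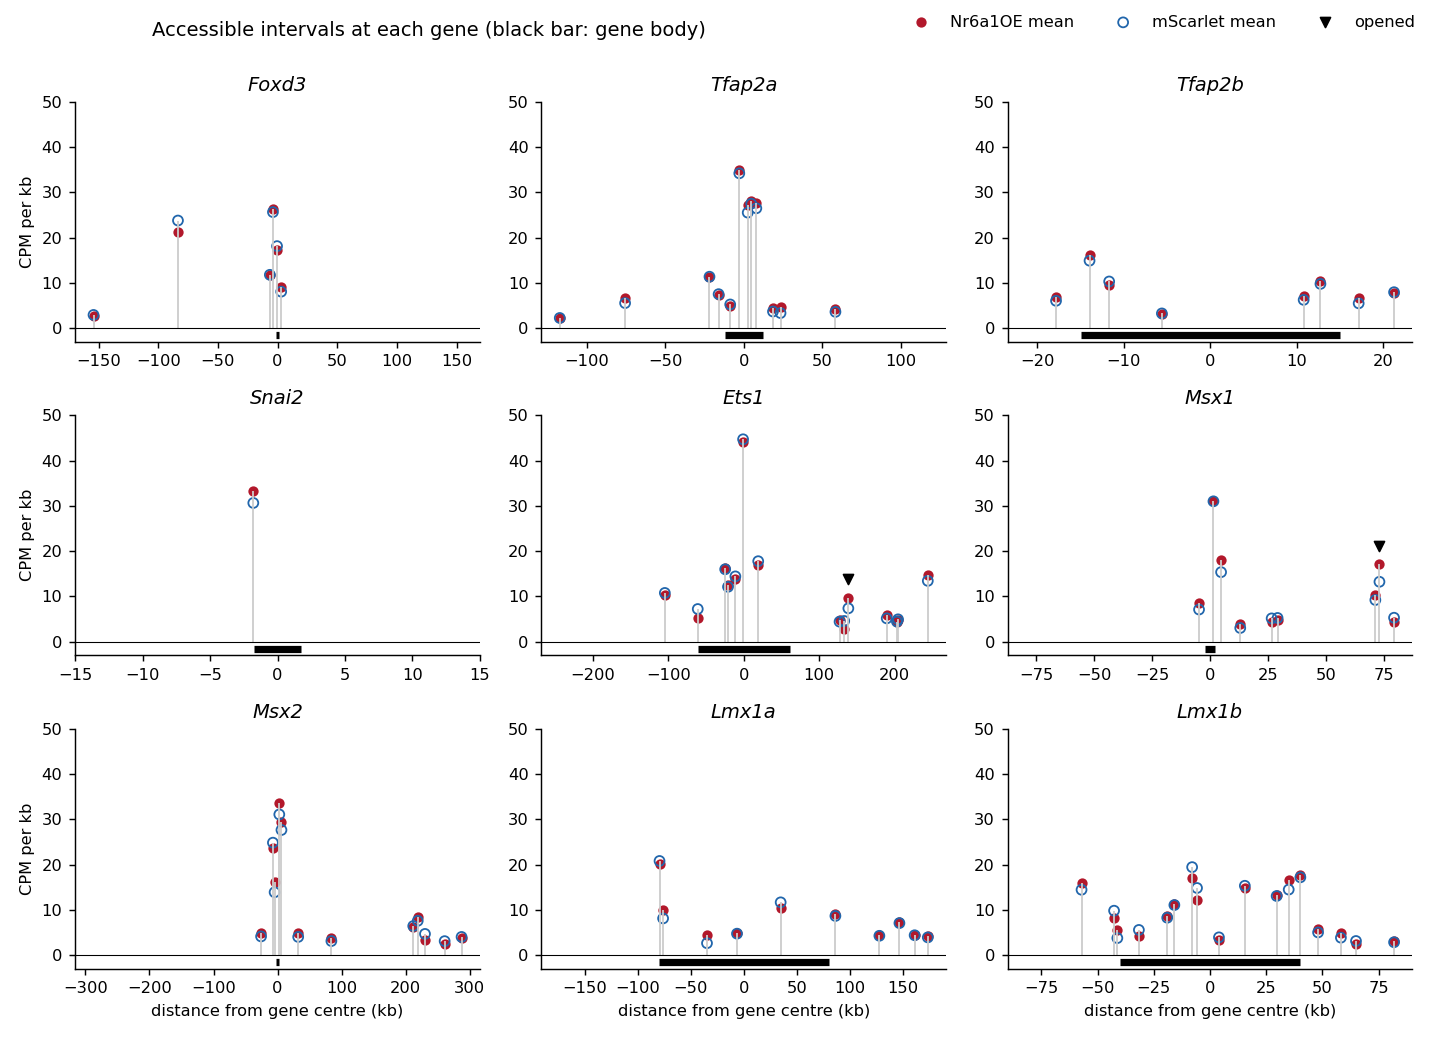
Mean accessibility (CPM per kb) of each interval against its distance from the gene centre (kb), filled points for Nr6a1OE, open points for mScarlet, and a black bar for the gene body. Triangles mark the 2 intervals that opened, at Msx1 and Ets1.

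Beyond the intervals above, the genes differed in where their accessible chromatin lay. The most accessible Ets1 interval per length (chromosome 9, 32695485 to 32696715) was inside the gene, 59.9 kb from the nearer end, at 44.4 CPM per kb over all libraries. No RefSeq promoter was found for Ets1, so whether this interval holds a start of the gene was not tested. At Foxd3, a forkhead factor of crest progenitors, the interval with the most fragments (chromosome 4, 99572761 to 99575329) lay 82.3 kb outside the gene and held 39.8% of the fragments of its 6 intervals. Msx2 had 5 intervals more than 200 kb away, the last at 284.4 kb with 2.66 CPM in Nr6a1OE and 2.83 in mScarlet. The nearest interval left out by the 300 kb limit lay 304.8 kb from Ets1, with 7.97 CPM in Nr6a1OE and 8.71 in mScarlet. All Lmx1b intervals lay within 41.8 kb of a gene end and all Tfap2b intervals within 9.40 kb. Interval length ran between 268 and 4166 bp.

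Nr6a1OE progenitors gained accessibility at 2 of the 88 intervals that could be tested and lost it at 0. The 2 that opened were distal sites beside Msx1 and Ets1. An interval was called opened or closed when its edgeR adjusted p was under 0.05. Of all 51637 tested intervals 0.469% opened and 1.26% closed, 1.73% in either direction, and a count of 2 in 88 is too small to be set apart from that share. Before adjustment, edgeR gave p under 0.05 for 8 intervals with Nr6a1OE higher and for 3 with Nr6a1OE lower, where the shares over all intervals were 5.73% and 6.87%. DESeq2, fitted without the filter, called 0 of the 89, where it called 4 opened and 99 closed of all 52223 intervals. It gave 8 of the 89 no adjusted p, and before adjustment its p was under 0.05 for 2 with Nr6a1OE higher and 1 with Nr6a1OE lower. The remaining interval, inside Lmx1a, had too few fragments for the test, 11, 14 and 11 in Nr6a1OE and 9, 3 and 10 in mScarlet.

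Msx1 is a homeodomain repressor induced by BMP at the plate border and in the roof plate. Its opened interval (chromosome 5, 37895036 to 37896360, 71.1 kb outside the gene) had 21.2, 23.4 and 23.5 CPM in Nr6a1OE libraries, against 17.5, 18.6 and 16.5 CPM in mScarlet libraries. All 3 Nr6a1OE libraries were above all 3 mScarlet libraries. On the log2 scale the difference was 0.38, standard error (SE) 0.10 (95% interval 0.18 to 0.57, edgeR adjusted p = 0.0164). The call was lost without Nr6a1OE 2 (edgeR adjusted p = 0.0810), Nr6a1OE 3 (0.103), mScarlet 1 (0.0723) or mScarlet 3 (0.138), and in DESeq2 (adjusted p = 0.609). Its neighbour at 37893413 to 37894441 had 10.5 ± 1.11 CPM in Nr6a1OE and 9.48 ± 0.938 CPM in mScarlet (SD, n = 3 each), and a log2 fold change of 0.15 (edgeR adjusted p = 0.716).

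Ets1 is an ETS-domain activator of crest and of blood vessel cells. The opened Ets1 interval (chromosome 9, 32834825 to 32836513, 77.8 kb outside the gene) had 15.6, 16.7 and 17.1 CPM in Nr6a1OE libraries, against 10.7, 13.8 and 12.9 CPM in mScarlet libraries. The groups did not overlap, and mScarlet 1 was lowest. On the log2 scale the difference was 0.41, SE 0.12 (95% interval 0.18 to 0.64, edgeR adjusted p = 0.0359). Leaving out Nr6a1OE 1, 2 or 3 or mScarlet 1 or 3 ended the call (edgeR adjusted p = 0.0528, 0.0993, 0.164, 0.311 and 0.0756), as did DESeq2 (adjusted p = 0.837). The nearest interval beside it, 72.4 kb from the gene at 32829846 to 32830524, had a value below 0 that did not pass. There were 1.85, 1.84 and 2.02 CPM in Nr6a1OE, against 1.64, 4.08 and 3.62 CPM in mScarlet. Library 1 of mScarlet lay below every Nr6a1OE library, so the groups overlapped. The fitted difference was -0.70 on the log2 scale (SE 0.29, edgeR adjusted p = 0.248).

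**Figure D3:**
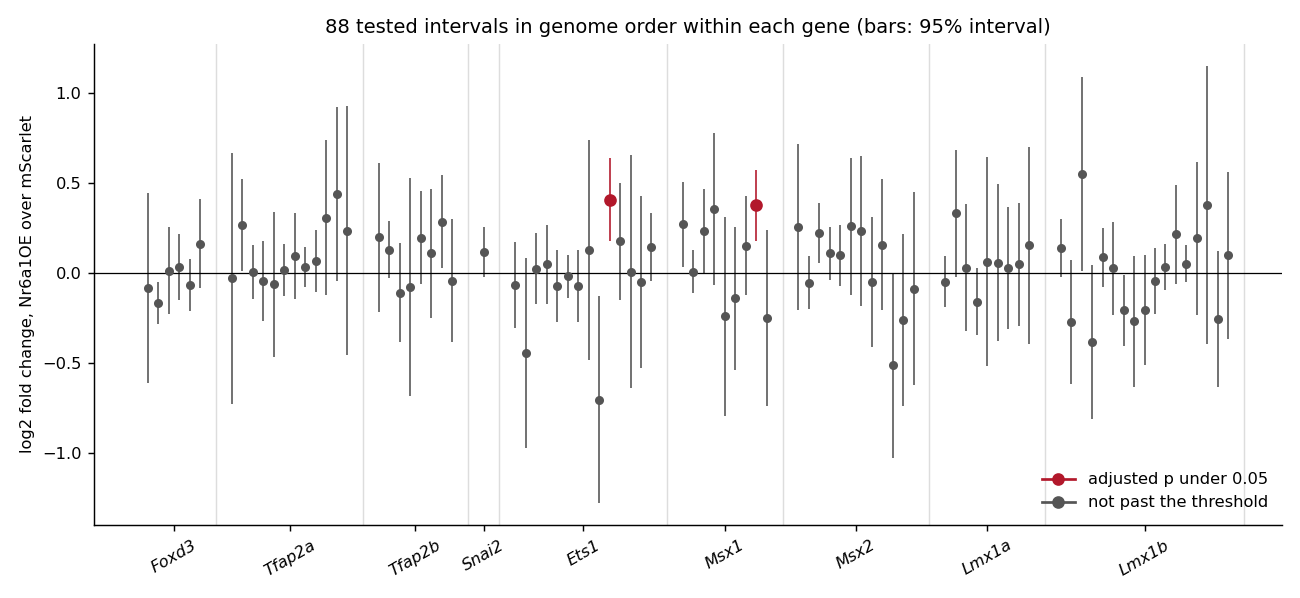
Log2 fold change (Nr6a1OE over mScarlet) with its 95% interval for the 88 tested intervals, in genome order within each gene. The 2 red points, 0.38 at Msx1 and 0.41 at Ets1, passed the threshold.

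The other border genes had no called interval. Among 12 Msx2 intervals the lowest p was 1.6 kb outside the gene (chromosome 13, 53464318 to 53466167), where Nr6a1OE libraries had 29.8, 28.5 and 31.8 CPM and mScarlet libraries 26.8, 24.0 and 26.3 CPM. The groups did not overlap there, and the log2 fold change was 0.22 (SE 0.084, edgeR adjusted p = 0.174). Tfap2a, which encodes AP-2α, a factor that crest induction needs, had its lowest p 63.4 kb away (chromosome 13, 40649512 to 40651385), at 12.6 ± 1.83 CPM in Nr6a1OE and 10.4 ± 0.523 in mScarlet (SD, n = 3 each; log2 fold change 0.27, edgeR adjusted p = 0.372). Its interval with the most fragments, inside the gene at 40729650, had 62.0 ± 5.11 CPM in Nr6a1OE and 60.6 ± 2.67 CPM in mScarlet. For its paralogue Tfap2b the lowest p was 2.2 kb outside the gene (chromosome 1, 19240126 to 19241992), with 12.4, 12.1 and 12.7 CPM in Nr6a1OE, against 9.99, 11.9 and 8.86 CPM in mScarlet. Its log2 fold change was 0.29 (SE 0.13, edgeR adjusted p = 0.325). Msx1 had further intervals 2.7 kb on either side of the gene, at 0.27 and 0.23 on the log2 scale (edgeR adjusted p = 0.296 and 0.394).

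Foxd3 was the 1 gene whose lowest p lay on the negative side with groups that did not overlap. Its strong distal interval at 99572761 had 53.7, 57.3 and 52.8 CPM in Nr6a1OE libraries, against 60.6, 60.4 and 62.3 CPM in mScarlet libraries. The log2 fold change of -0.17 (SE 0.059, 95% interval -0.28 to -0.05) had an unadjusted p of 0.00523 and did not pass (edgeR adjusted p = 0.140). The interval 2.7 kb from Foxd3 had 23.1 ± 0.307 CPM in Nr6a1OE and 22.6 ± 0.146 CPM in mScarlet (SD, n = 3 each), groups that did not overlap either but with a log2 fold change of 0.03.

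The roof plate factors were alike in having no call and values on both sides of 0. For Lmx1b the log2 fold changes ran between -0.38 and 0.55, with a median of 0.03. The lowest p was inside the gene (chromosome 2, 33592580 to 33593672), with 19.9, 17.9 and 17.8 CPM in Nr6a1OE, against 21.2, 19.4 and 23.2 CPM in mScarlet, groups that overlapped (-0.21 on the log2 scale, SE 0.10, edgeR adjusted p = 0.358). The highest value, 0.55 (SE 0.28, edgeR adjusted p = 0.383), belonged to a weak interval 1.1 kb from the gene where mScarlet 1 had 0.958 CPM and the other 5 libraries 2.87 to 3.67. Lmx1a values ran between -0.16 and 0.33. The upper value was 4.1 kb inside the nearer gene end. Its interval had 7.24, 4.24 and 8.45 CPM in Nr6a1OE and 6.02, 6.70 and 3.49 CPM in mScarlet, groups that overlapped (edgeR adjusted p = 0.442). The 0.33 became 0.11 without Nr6a1OE 3, 0.08 without mScarlet 3, 0.57 without Nr6a1OE 2 and 0.51 without mScarlet 2.

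**Figure D4:**
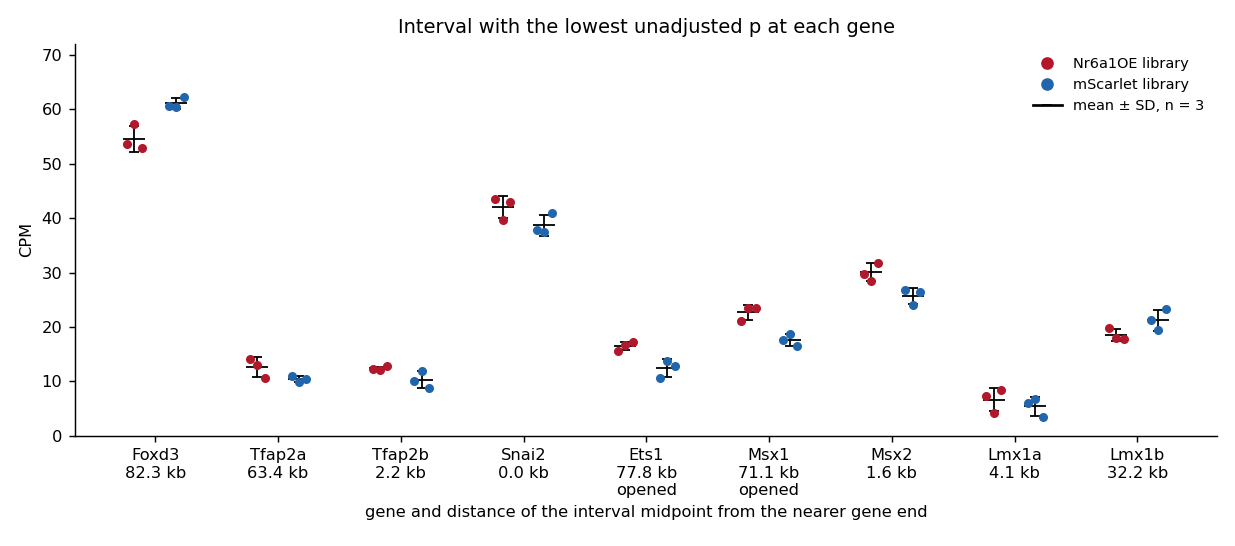
CPM in each library for the interval with the lowest unadjusted p at each gene, Nr6a1OE left of mScarlet, with mean ± SD (n = 3) and the distance to the nearer gene end below each name. The groups do not overlap at Msx1, Ets1, Foxd3, Msx2 and Tfap2b, and the intervals of Msx1 and Ets1 passed the adjusted test.

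Over the 88 intervals the median log2 fold change was 0.03 (quartiles -0.07 and 0.17), against 0.0038 over all tested intervals (quartiles -0.11 and 0.12). Values above 0 were found at 55 of the 88, or 62.5%, and at 50.8% of all intervals. The groups did not overlap at 10 intervals with Nr6a1OE higher and at 2 with Nr6a1OE lower, where the shares over all tested intervals were 7.89% and 8.73%. Neighbouring intervals can share fragments and intervals of a gene share their source, so these counts are not independent. Within 5 kb of a gene end 18 of 26 intervals were above 0, with a median of 0.10, against 0.0029 for all intervals at that distance. Between 5 and 50 kb the median was 0.03 over 37 intervals, and beyond 50 kb, where both opened intervals lay, 0.03 over 25, against 0.02 and -0.02 for all intervals at those distances. The SE of a single interval had a median of 0.15 and reached 0.39, so a change of 0.3 was not detectable at many of them.

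Fragments summed over all intervals of a gene gave 1 value per gene and library, and none of the 9 genes passed. Over 16490 genes tested in the same way 0.873% rose and 1.06% fell. Msx1 had 127.6, 133.1 and 137.9 CPM in Nr6a1OE libraries, against 124.9, 123.3 and 118.6 CPM in mScarlet libraries, with no overlap. Its log2 fold change of 0.13 (SE 0.041, 95% interval 0.05 to 0.21) had an unadjusted p of 0.00174 and an edgeR adjusted p of 0.0705. The Msx1 sum includes the opened interval. Tfap2b had 82.6, 88.1 and 85.2 CPM in Nr6a1OE and 78.3, 81.5 and 76.9 CPM in mScarlet, again without overlap, at 0.12 on the log2 scale (SE 0.050, edgeR adjusted p = 0.246).

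Foxd3 was lower in every Nr6a1OE library, at 140.8, 144.8 and 141.0 CPM, against 149.0, 151.1 and 145.9 CPM in mScarlet. Its log2 fold change was -0.06 (95% interval -0.14 to 0.01, edgeR adjusted p = 0.531). The mean Foxd3 sums were 142.2 CPM in Nr6a1OE and 148.7 CPM in mScarlet. They include the distal interval at 99572761, which had means of 54.6 and 61.1 CPM. Of the 6 Foxd3 intervals, 3 had log2 fold changes above 0 and 3 below. In the remaining 6 genes the groups overlapped. Msx2 had 163.3 ± 7.78 CPM in Nr6a1OE and 155.3 ± 3.16 in mScarlet (SD, n = 3 each; log2 fold change 0.08, 0.04 without Nr6a1OE 3, edgeR adjusted p = 0.312), and Tfap2a 218.2 ± 5.36 and 210.5 ± 6.23 CPM (0.06, adjusted p = 0.471). Ets1 had 198.8 ± 2.74 CPM in Nr6a1OE and 196.2 ± 6.74 in mScarlet, a difference of 0.02 with a 95% interval of -0.04 to 0.09. Lmx1b (0.02, -0.04 to 0.07) and Lmx1a (-0.01, -0.10 to 0.08) had intervals of the same kind around 0. Their signs turned on leaving out 1 library.

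**Figure D5:**
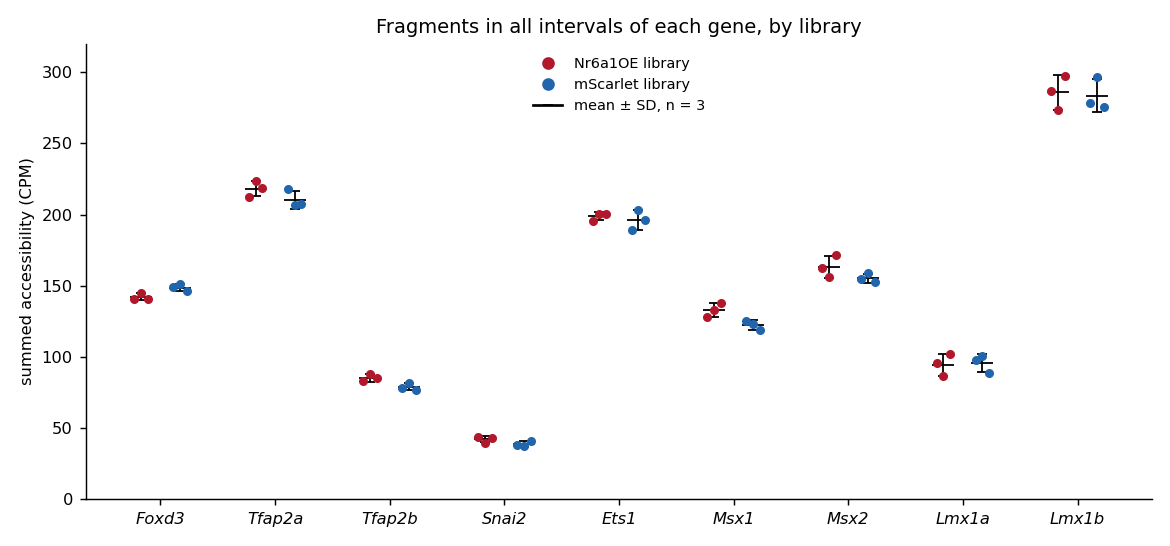
CPM summed over all intervals of each gene, a point per library, Nr6a1OE left of mScarlet, with mean ± SD (n = 3). Groups do not overlap at Foxd3, Tfap2b and Msx1, and none of the 9 genes passed the adjusted test.

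Further genes of the crest and roof plate programmes held calls in both directions. In a list of 20 further neural crest genes 3 of 152 tested intervals opened and 6 closed, with a median log2 fold change of 0.02. Of all tested intervals 0.469% opened and 1.26% closed. Of the 6, 4 lay at Cdh11, a cadherin of mesenchymal and migrating crest cells. At its clearest interval (chromosome 8, 102813740 to 102814226, 28.5 kb outside the gene) Nr6a1OE libraries had 7.67, 7.91 and 6.18 CPM, against 12.7, 12.2 and 13.2 CPM in mScarlet libraries, with no overlap. The difference of -0.82 on the log2 scale (SE 0.14, edgeR adjusted p = 4.74e-06) was also called by DESeq2 (adjusted p = 0.0195). Opened intervals of this list were at the dorsal paired-box genes Pax3, with 57.2 ± 1.96 CPM in Nr6a1OE and 46.4 ± 2.29 CPM in mScarlet (SD, n = 3 each), and Pax7, with 2. The other closed ones were at Sox9 (-0.26) and Mitf (-0.38). With the median log2 fold change of each chromosome removed, Mitf (edgeR adjusted p = 0.0506) and 1 Pax7 interval (0.0557) were not called. Sox9 then stood at -0.32 (edgeR adjusted p = 0.00226), and the remaining calls of this list stayed. On leaving out 1 library at a time, the interval at Pax3 and 3 of the Cdh11 intervals stayed called in each edgeR fit, while both at Pax7, those at Sox9 and Mitf and the fourth at Cdh11 (-1.42) were lost in at least 1 (highest edgeR adjusted p = 0.0708 and 0.290 at Pax7, 0.364 at Sox9, 0.213 at Mitf and 0.161 at Cdh11). DESeq2 did not call Pax3 (adjusted p = 0.117) or the other 2 of those 3 Cdh11 intervals (0.297 and 0.0772), and with an assumed variation of 10% between cultures edgeR called neither Pax3 (adjusted p = 0.587) nor those 2 (0.0689 and 0.0501).

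In a list of 20 roof plate genes and signals, which shares Pax3 with the list before, 3 of 107 tested intervals opened and 2 closed, with a median of 0.02. For this list and the marker lists below, the shares over all tested intervals were again 0.469% and 1.26%. Beside Wnt1, a signal of the dorsal midline, the opened interval (chromosome 15, 98797422 to 98799656) had 76.8, 77.5 and 75.8 CPM in Nr6a1OE, against 62.3, 59.3 and 71.6 CPM in mScarlet (log2 fold change 0.24, SE 0.054, edgeR adjusted p = 0.00119). It was lost without mScarlet 2 (edgeR adjusted p = 0.0662). The interval inside Wnt3a had 44.7, 36.7 and 41.2 CPM in Nr6a1OE, against 33.5, 32.3 and 33.7 CPM in mScarlet (0.30, SE 0.073, edgeR adjusted p = 0.00634). It was lost without Nr6a1OE 1 (edgeR adjusted p = 0.165). With chromosome medians removed (0.06 for chromosome 11) its value was 0.24 and the call was lost (edgeR adjusted p = 0.0561). DESeq2 called neither Wnt1 (adjusted p = 0.251) nor Wnt3a (0.462), and neither was called by edgeR with the assumed variation of 10% (0.779 and 0.648). An interval 79.2 kb from Olig3 closed (-1.22), a call lost on leaving out any of 4 libraries (highest edgeR adjusted p = 0.185). Beside these counts, the 90 tested intervals at neural progenitor markers held 1 opened and 3 closed with a median of 0.02, and the 28 at endothelium and blood markers 0 opened and 1 closed with a median of 0.05. The 83 tested intervals at ventral progenitor and floor plate markers held 0 opened and 3 closed with a median of -0.04, and the 40 at neuron markers 0 opened and 1 closed with a median of -0.09. Mesoderm (27 tested intervals, median 0.09) and pluripotent cell markers (10, median -0.05) held no call. The part of a changed cell mixture in these results was not tested.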

How the data were processed

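The authors deposited 1 table of raw fragment counts per interval (mm10, per the submitters' processing notes). Per the file headers, featureCounts 2.0.1 counted read pairs, letting a fragment count in every interval it overlapped by at least 0.2 of its length. Nothing used here states the aligner, peak caller, duplicate handling, Tn5 shift or how intervals were merged. Gene positions came from RefSeq (GRCm38.p6, the coordinates of mm10).

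Intervals passing filterByExpr (586 removed) were scaled by TMM and compared by the quasi-likelihood test of edgeR 4.0.16 in R 4.3.3 (glmQLFit, glmQLFTest) without covariates, with Benjamini-Hochberg adjustment over all tested intervals. Each SE is the absolute log2 fold change over the square root of F. Gene sums were fitted the same way over all genes. The code was tested on simulated data. DESeq2 1.42.0, other scalings and filters, a replicate block, a 10% assumed variation and leaving out each library were alternatives. Members and lists were chosen with earlier results of these data known. The result at 1 gene of the roof plate list is not reported here. Intervals named singly were those called, those at gene starts, and per gene the one with the most fragments and the one with the lowest p; others were named after their values were seen.

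Deviations from the group mean correlated at 0.03, -0.02 and -0.03 for same-numbered pairs of libraries, and at -0.05 to 0.07 for other pairs. Counting noise makes up most of these deviations, so the check cannot tell whether a replicate number marks a shared culture. Libraries of 1 group varied beyond Poisson sampling (chi-square over its degrees of freedom, 1.05 to 1.10). Over intervals of at least 100 fragments Nr6a1OE 1 and 3 did not (0.999, chi-square p = 0.549), so they were also summed to 1 sample as an alternative. The common coefficient of variation was 1.47%.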

Additional observations from a re-analysis of the deposited data

How the results depend on the processing

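The 2 opened intervals were 0 in DESeq2, 0 with an assumed variation of 10% between cultures (where 19 opened and 205 closed of all intervals) and 0 to 2 on leaving out 1 library (where 98 to 190 of all opened). They were 2 with a replicate block, other scalings, no filter, Nr6a1OE 1 and 3 summed, or a limit of 100 kb. The closed count was 0 in every alternative run. No gene sum passed in any alternative that gave it an adjusted p, which DESeq2 did for Tfap2a, Ets1, Msx2 and Lmx1b but not for the other 5 genes, Msx1 among them. Small values turned sign on leaving out 1 library, with ranges of -0.0037 to 0.049 for Ets1, -0.067 to 0.051 for Lmx1a and -0.013 to 0.053 for Lmx1b. The Lmx1a sum was 0.000101 with chromosome medians removed. Single intervals near 0 did so too, with ranges of -0.054 to 0.010 at Ets1 32695485, -0.11 to 0.012 at the Foxd3 start, -0.10 to 0.0077 at the Lmx1a start, -0.0046 to 0.021 at the Msx1 start and -0.0090 to 0.10 at Tfap2a 40729650. The cause was not tested. The median over the intervals was 0.03 to 0.07 in every alternative run. The replicate block changed no call among the 9 genes (edgeR), leaving the median at 0.03; it called 224 opened and 617 closed of all intervals. Depth limits the weak intervals, and the 95% intervals cover the spread among these libraries only.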

Other observations

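On the ventral side of the tube, opposite the crest and roof plate, 1 interval assigned to Nkx6-1, a homeodomain gene of ventral progenitors, closed beyond the spread of the libraries. It lay 135.0 kb from the gene (chromosome 5, 101523581 to 101524845) and had 29.5 ± 2.31 CPM in Nr6a1OE and 40.3 ± 3.29 CPM in mScarlet (SD, n = 3 each). On the log2 scale the difference was -0.45 (SE 0.076, edgeR adjusted p = 2.06e-06). It was called in each fit that left out 1 library (highest edgeR adjusted p = 0.00390) and in DESeq2 (adjusted p = 0.0179), and not with an assumed variation of 10% between cultures (adjusted p = 0.148). An interval 156.5 kb from Foxa2, a floor plate gene, had 2.00 ± 0.121 CPM in Nr6a1OE and 3.90 ± 0.441 CPM in mScarlet (SD, n = 3 each; log2 fold change -0.95, SE 0.27, edgeR adjusted p = 0.0328), a call that every fit leaving out 1 library lost (highest edgeR adjusted p = 0.138).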
